A study of Homo sapiens with 6 samples.

Results

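The mitochondrial ribosomal proteins are the protein subunits, encoded in the nucleus, of the ribosome that works inside mitochondria. Their genes were taken from the deposited count table as every row whose symbol is MRPL or MRPS followed by a number, without pseudogene rows, without antisense rows, and with a mean of at least 1 CPM (counts scaled to a common library total). Of 61517 rows in the table, 164 carried such a symbol, 79 of these were pseudogenes and 7 were antisense, divergent or other derived transcripts. The remaining 78 genes all passed the level rule and made up the family, 49 of them MRPL genes, named for the large subunit, and 29 MRPS genes, named for the small subunit. The lowest member was MRPS33, at a mean of 3.79 CPM over the 6 libraries, so no member lay near the limit of 1 CPM and no row was dropped for it.

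RNA was sequenced from THP-1, an established human monocytic leukaemia line. The 6 libraries fall into a pair of groups, 3 libraries from cells given ruxolitinib, an inhibitor of the kinases JAK1 and JAK2, and 3 libraries from cells without it, called control. Per the series' design text, the cells of both groups had been driven into macrophages and then into pyroptosis, a lytic inflammatory cell death, with ATP and lipopolysaccharide (LPS). The labels write the drug as Lukotinib, the series title gives ruxolitinib, and each library carries a batch number from 1 to 3 that 1 ruxolitinib and 1 control library share. The sources used here give neither dose, nor exposure times, nor the agent of differentiation, and unstimulated cells were not analysed here.

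Mitochondrial ribosomes are descended from bacterial ones and translate the few messenger RNAs (mRNAs) of mitochondrial DNA, all of which encode subunits of the respiratory chain and ATP synthase. Their ribosomal RNAs are made in the mitochondrion, while all their proteins are made in the cytosol and imported. Many of the proteins have bacterial counterparts and others were added during mitochondrial evolution. In macrophages, LPS is known to shift metabolism away from respiration.

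The libraries held 17757595 to 24533979 counts, and a count of 0 would allow at most 0.122 to 0.169 CPM, taking 3 counts as the limit and covering counting error only. The smallest count of a member in a library was 52, for MRPL1. Levels below are CPM over totals scaled by trimmed mean of M-values (TMM). Log2 CPM correlated over genes at 0.988 to 0.991 between libraries of the same group, and at 0.972 to 0.976 across groups. Monocyte and macrophage markers were present, and their summed level was 1889 ± 10.5 CPM with ruxolitinib and 2799 ± 43.0 CPM in control (SD, n = 3 each). Of 12 such markers, 11 were lower with ruxolitinib and LYZ was higher, at an edgeR adjusted p under 0.05. Over all tested genes 16.1% were lower and 13.6% higher. LYZ did not pass with the batch number as a block (edgeR adjusted p = 0.101) and passed in 1 of 6 fits that left out 1 library. CD33 and TYROBP, both lower, also missed with the block (edgeR adjusted p of 0.0567 and 0.0579). The 17 markers of other cell types had at most 1.13 CPM in either group, and 4 of them had 0 counts in all libraries. In bulk RNA, fewer cells of a type and less RNA per cell cannot be told apart, and the part of this marker change in the results was not tested.

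The comparison asked how ruxolitinib changed these transcripts in stimulated macrophages. With ruxolitinib, 9 of the 78 genes rose, 7 fell and 62 did not pass the test, which was edgeR's quasi-likelihood test with Benjamini-Hochberg adjustment over all 14051 tested genes at a threshold of 0.05. In the family 11.5% passed as higher, 8.97% as lower and 20.5% in either direction, where over all tested genes it was 13.6%, 16.1% and 29.7%. The median log2 fold change, ruxolitinib over control, was 0.04 over the family and -0.01 over all tested genes. The changes were small, between -0.47 for MRPL1 and 0.44 for MRPL48, and the median size of a change was 0.12, beside 0.21 over all tested genes. No member reached a log2 fold change of 0.5 in size, a size reached by 18.2% of all tested genes. The members were also more abundant and had smaller errors than most genes. Their median level was 22.5 CPM and their median SE 0.079, against 13.0 CPM and 0.112 over all tested genes. The part of this in the smaller sizes was not tested.

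With the batch number as a block in the edgeR fit, 5 members passed as higher and 1 as lower, against 2915 tested genes in place of 4175. The split between rises and falls moved with the scaling of the libraries. Upper-quartile scaling gave 14 higher and 3 lower, and library totals alone gave 5 higher and 9 lower. The median log2 fold change over all tested genes moved as well, to 0.0233 and -0.0475 in these settings. That of the family was then 0.0762 and 0.0055, so the move was not particular to the family. None of the 16 genes that passed changed sign under any of 19 alternative settings. These settings reuse the libraries in which the 16 were picked, so their signs could hardly change.

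**Figure D1:**
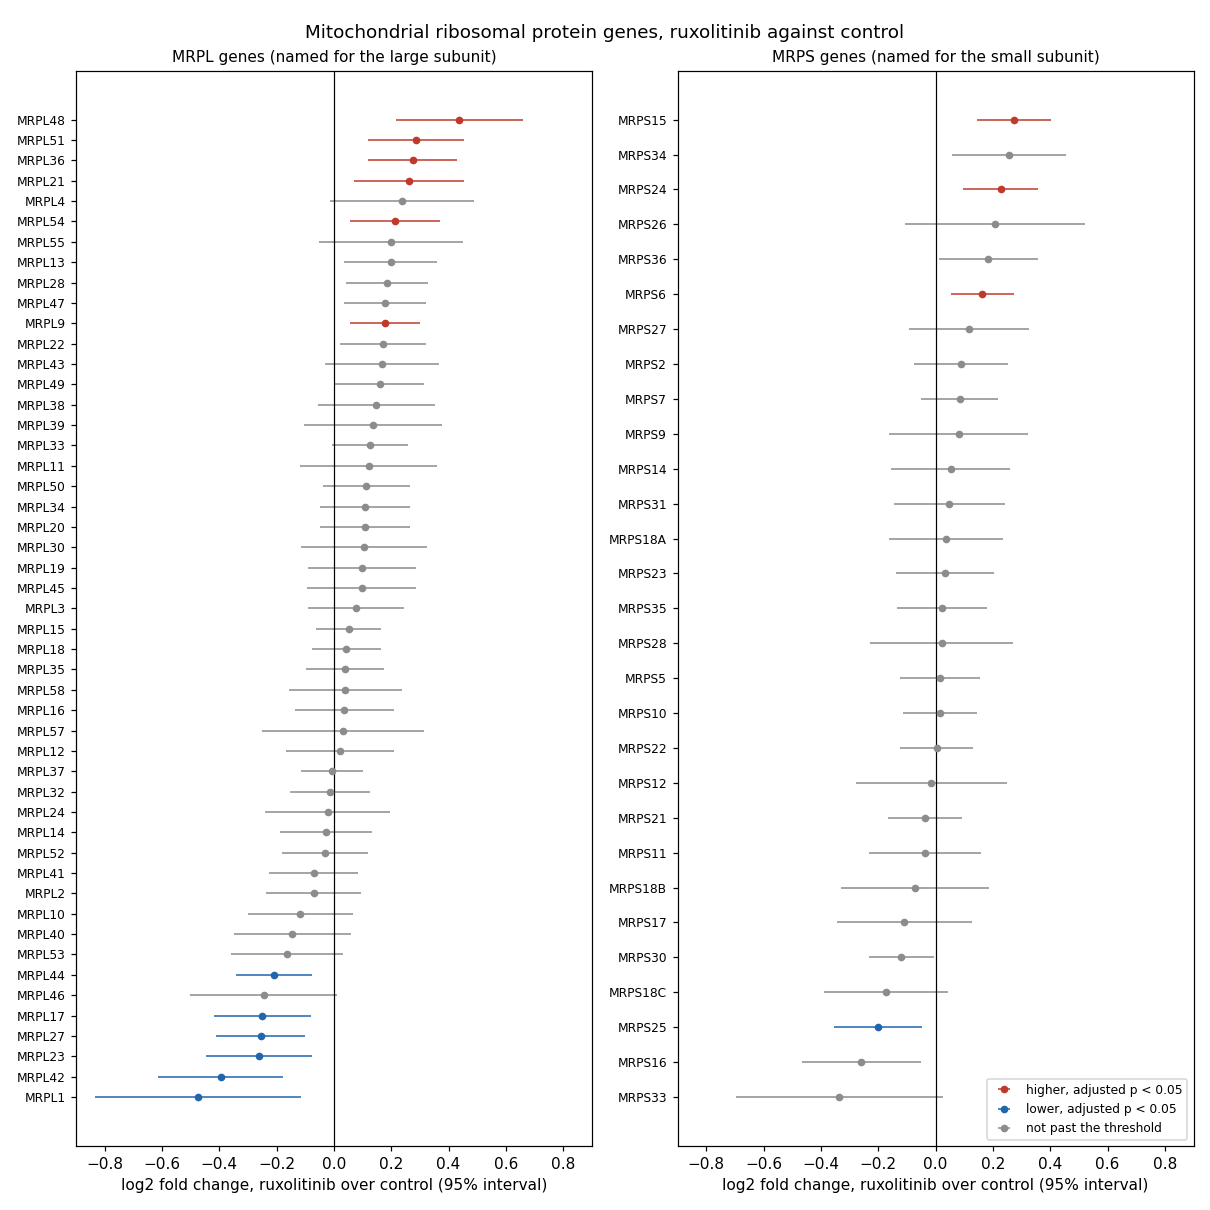
Log2 fold change, ruxolitinib over control, of the 49 MRPL genes (left) and the 29 MRPS genes (right), with 95% intervals from edgeR. Red points passed the threshold as higher, blue points as lower, and grey points did not pass. Members that passed lie on both sides of 0 in each panel, and 62 genes are grey, among them MRPS33 and MRPS16 at the low end of the MRPS panel.

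Of the 49 MRPL genes, 6 rose, 6 fell and 37 did not pass, with a median log2 fold change of 0.08. Of the 29 MRPS genes, 3 rose, MRPS25 fell and 25 did not pass, with a median of 0.02. Of the 47 members with a bacterial counterpart, 6 rose and 4 fell, and of the 31 without one, 3 rose and 3 fell. In each of these parts the shares were below those over all tested genes, of which 13.6% rose and 16.1% fell. The 3 ruxolitinib libraries all lay above the 3 control libraries for 21 members and all below for 10, while the groups overlapped for 47. Over all tested genes, 44.2% had groups that did not overlap, 20.5% with the ruxolitinib libraries above and 23.8% with them below. Within batches, 28 members were higher with ruxolitinib in 3 of 3 pairs and 12 were lower in 3 of 3, where 25.2% and 29.0% of all tested genes were.

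Summed over the family, the transcripts came to 2325 ± 78.8 CPM with ruxolitinib and 2248 ± 46.3 CPM in control (SD, n = 3 each). The libraries stood at 2303, 2413 and 2260 CPM with ruxolitinib, against 2299, 2209 and 2236 CPM in control. The lowest ruxolitinib library lay below the highest control library, so the groups overlapped. The sum over MRPL genes was 1358 ± 54.4 CPM with ruxolitinib and 1313 ± 30.4 CPM in control, and the sum over MRPS genes was 967 ± 25 CPM with ruxolitinib and 935 ± 15.9 CPM in control.

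MRPL48, a large-subunit protein without a bacterial counterpart, had the largest rise of the family. Its gene (ENSG00000175581) lies on the plus strand at chr11:73787316-73865133 in GRCh38. Its counts were 230, 246 and 212 with ruxolitinib, against 163, 232 and 199 in control. Scaled, it stood at 12.1, 13.2 and 11.4 CPM with ruxolitinib, against 9.17, 9.23 and 8.63 CPM in control. The log2 fold change was 0.44 ± 0.10 (SE, n = 3 per group, edgeR adjusted p = 0.00658, and 0.0261 with the batch as a block). The groups were well apart, and within batches 1 to 3 the log2 ratios were 0.38, 0.49 and 0.38.

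MRPS15, a small-subunit protein with a bacterial counterpart, had 37.1, 38.8 and 36.1 CPM with ruxolitinib, against 30.7, 31.0 and 31.1 CPM in control. The control libraries were nearly level with each other and the groups did not overlap. It rose by 0.27 ± 0.06 on the log2 scale (SE, edgeR adjusted p = 0.00445). MRPL36, one of the smallest proteins of the large subunit, had 32.2, 36.5 and 31.3 CPM with ruxolitinib, against 27.2, 27.6 and 27.7 CPM in control. Ruxolitinib replicate 2 was the high one, and the others were also above every control library. Its log2 fold change was 0.28 ± 0.07 (SE, edgeR adjusted p = 0.0121).

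MRPS24, the counterpart of a bacterial protein at the entry of the mRNA channel, had 51.7, 52.2 and 48.8 CPM with ruxolitinib, against 46.2, 42.0 and 42.3 CPM in control. The log2 fold change was 0.23 ± 0.06 (SE, edgeR adjusted p = 0.0134). All ruxolitinib libraries were higher than control replicate 1, the highest of its group. MRPL51, a protein found in mitochondrial ribosomes and not in bacterial ones, had 23.8, 25.5 and 24.1 CPM with ruxolitinib, against 19.6, 21.6 and 18.9 CPM in control, again without overlap. Its log2 fold change was 0.29 ± 0.08 (SE, edgeR adjusted p = 0.0145). Of its 1551 exon bases, 486 (31.3%) are shared with NCAPD2 on the opposite strand, a condensin gene with a log2 fold change of 0.21 ± 0.10 (edgeR adjusted p = 0.140). Whether counting used the strand is not given in the sources at hand, so reads of that stretch cannot be told apart.

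The other 4 genes that rose did not pass with the batch as a block. MRPL21, a large-subunit protein, had 24.7, 29.7 and 24.5 CPM with ruxolitinib, against 21.1, 21.2 and 23.4 CPM in control, and its log2 fold change was 0.26 ± 0.09 (edgeR adjusted p = 0.0412, 0.0917 with the block). MRPL54, which has no bacterial counterpart, had 24.8, 24.6 and 23.1 CPM with ruxolitinib, against 20.9, 21.7 and 19.9 CPM in control, a log2 fold change of 0.21 ± 0.07 (edgeR adjusted p = 0.0417, 0.0996 with the block). MRPL9 had 46.8, 47.6 and 48.2 CPM with ruxolitinib, against 43.7, 40.5 and 42.1 CPM in control, a log2 fold change of 0.18 ± 0.06 (edgeR adjusted p = 0.0309, 0.104 with the block). In all 3 genes the groups lay close together without overlapping. MRPS6, the most abundant member, had 186, 179 and 197 CPM with ruxolitinib, against 171, 171 and 160 CPM in control. Its log2 fold change was 0.16 ± 0.05 (edgeR adjusted p = 0.0303, 0.115 with the block), and the groups again lay close together without overlap. It shares 273 exon bases with SLC5A3, an inositol transporter gene on the same strand, whose log2 fold change was -0.27 ± 0.08 (edgeR adjusted p = 0.0250).

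MRPL42, a mitochondria-specific protein, had the fall that passed most of the alternative settings. Its gene (ENSG00000198015) lies on the plus strand at chr12:93467488-93516213 in GRCh38. It stood at 20.8, 23 and 18 CPM with ruxolitinib, against 30.2, 25.3 and 26.1 CPM in control. The groups did not overlap, but ruxolitinib replicate 2 and control replicate 2, which share a batch, were near each other. The log2 fold change was -0.40 ± 0.10 (SE, n = 3 per group, edgeR adjusted p = 0.0108, and 0.0214 with the block), and within batches 1 to 3 the log2 ratios were -0.52, -0.13 and -0.53.

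MRPL1, the counterpart of the protein of the mobile stalk beside the ribosome's exit site, had the largest fall by size. It was also among the least abundant members, with counts of 72, 52 and 67 with ruxolitinib, against 79, 114 and 118 in control. Scaled, it had 3.78, 2.78 and 3.59 CPM with ruxolitinib, against 4.44, 4.54 and 5.12 CPM in control. The groups did not overlap, and the log2 fold change was -0.47 ± 0.16 (SE, edgeR adjusted p = 0.0473, 0.0886 with the block). MRPL27, whose bacterial counterpart reaches the peptidyl-transferase centre, had 19.8, 19.4 and 18.4 CPM with ruxolitinib, against 23.4, 23.2 and 22.3 CPM in control. The libraries of each group were close to each other, and the log2 fold change was -0.26 ± 0.07 (SE, edgeR adjusted p = 0.0172, 0.0596 with the block).

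MRPL23 and MRPL17 encode proteins near the exit of the tunnel through which the new chain leaves, and both fell. MRPL23 had 12.4, 13.2 and 13.9 CPM with ruxolitinib, against 15.6, 15.9 and 15.7 CPM in control, a log2 fold change of -0.26 ± 0.08 (edgeR adjusted p = 0.0364, 0.103 with the block). MRPL17 had 22.7, 23.4 and 21.3 CPM with ruxolitinib, against 28.8, 24.7 and 26.9 CPM in control, a log2 fold change of -0.25 ± 0.08 (edgeR adjusted p = 0.0296, 0.0777 with the block). Neither gene had overlapping groups. MRPL45, the membrane anchor at the same exit, had 20.9, 23.8 and 21.4 CPM with ruxolitinib, against 18.3, 21.6 and 21.6 CPM in control (log2 fold change 0.10, edgeR adjusted p = 0.446). MRPL24, another protein of that region, had 11.6, 11 and 10.1 CPM with ruxolitinib, against 11.5, 10.5 and 11.3 CPM in control (log2 fold change -0.02, edgeR adjusted p = 0.892). Both had overlapping groups and did not pass.

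MRPL44, which has an RNase III-like fold, had 40.1, 39.1 and 37.5 CPM with ruxolitinib, against 44.4, 43.1 and 47.4 CPM in control, a log2 fold change of -0.21 ± 0.06 (edgeR adjusted p = 0.0207, 0.0773 with the block). MRPS25, a small-subunit protein without a bacterial counterpart, had 27.0, 23.9 and 26.5 CPM with ruxolitinib, against 30.5, 28.6 and 29.9 CPM in control. Its log2 fold change of -0.20 ± 0.07 was at the threshold (edgeR adjusted p = 0.04998, 0.0958 with the block). In both genes every ruxolitinib library was below every control library. MRPS25 shares 22.2% of its exon bases with NR2C2, a nuclear receptor gene on the opposite strand (log2 fold change -0.16 ± 0.08, edgeR adjusted p = 0.150).

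**Figure D2:**
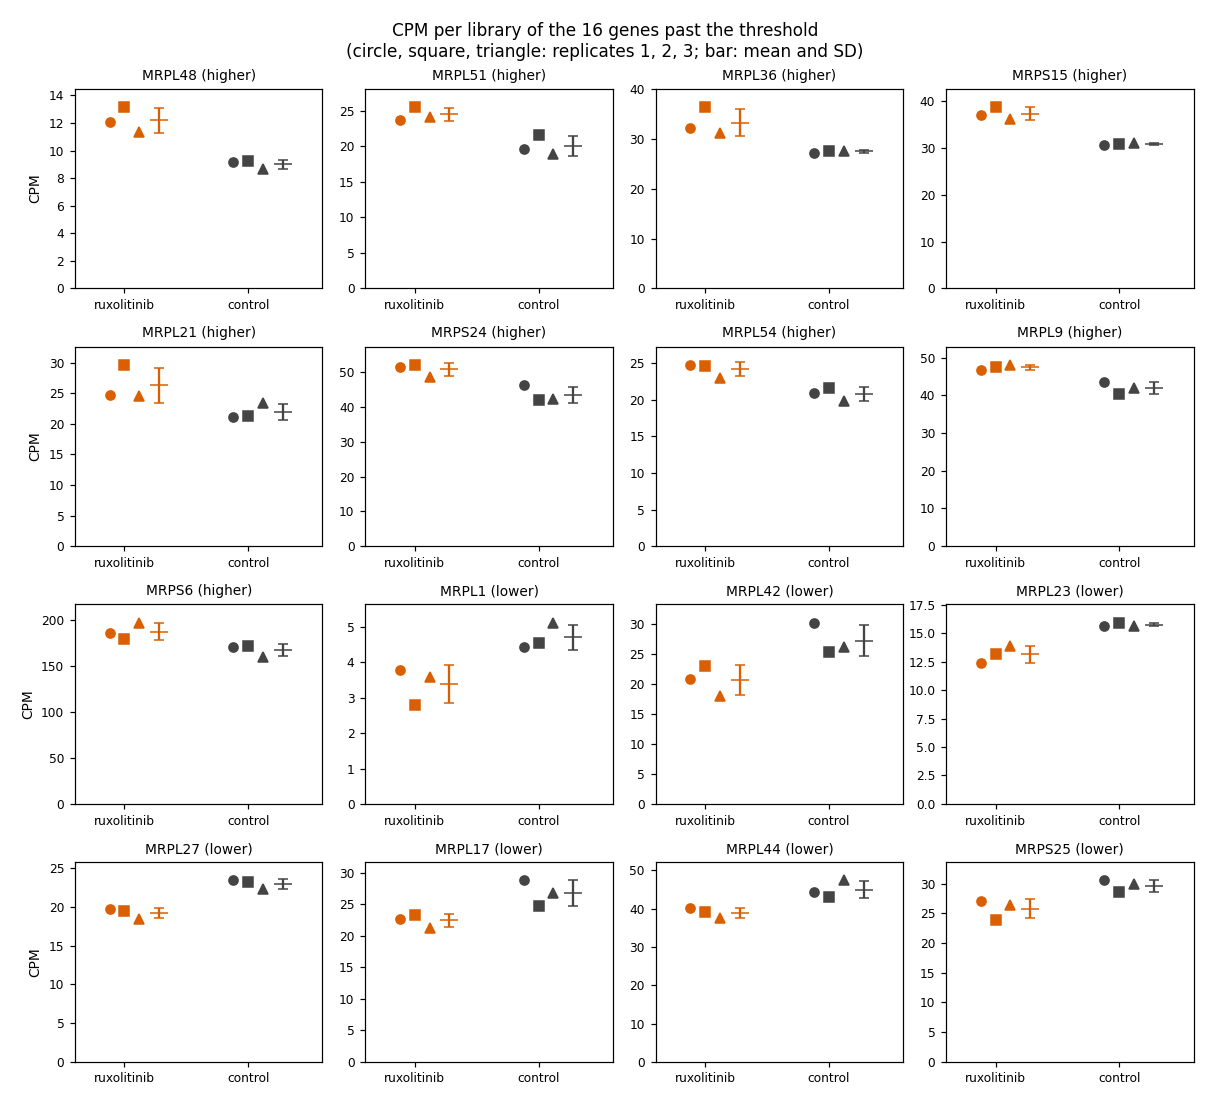
Level in CPM of the 16 genes that passed the threshold, in each ruxolitinib library (orange, left) and each control library (grey, right), on axes that start at 0. Circles, squares and triangles are replicates 1, 2 and 3, and the bar is the mean with its SD. The groups do not overlap in any of the 16 panels, and the shifts are small beside the levels themselves.

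All 16 genes had the same direction in 3 of 3 batch pairs, which follows from groups that do not overlap and adds no support. The within-batch log2 ratios of the 9 genes that rose ran between 0.06, for MRPS6 in batch 2, and 0.49, for MRPL48 in batch 2. Those of the 7 that fell ran between -0.08, for MRPL17 in batch 2, and -0.62, for MRPL1 in batch 2. Batch 2 thus held both the smallest and the largest ratios of each direction.

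**Figure D3:**
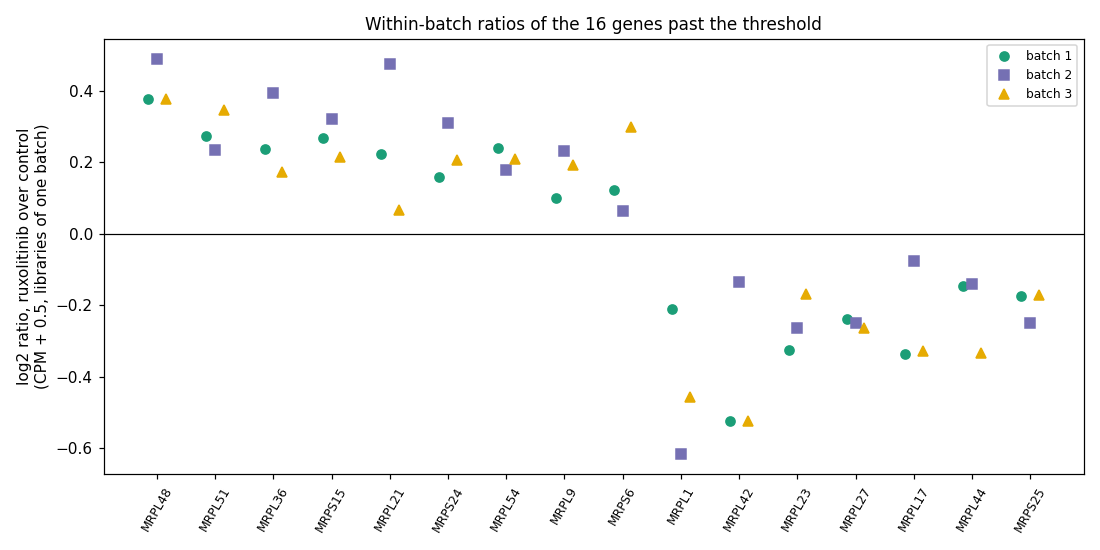
Log2 ratio of the ruxolitinib library over the control library of the same batch (CPM + 0.5) for the 16 genes that passed, with a circle, square and triangle for batches 1, 2 and 3. Ratios of the genes that rose are all above 0 and those of the genes that fell all below 0. That follows from groups that do not overlap. Batch 2 (squares) holds both the smallest and the largest ratio of each direction.

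Most of these calls depended on which libraries were in the fit. MRPL48, MRPL36, MRPS15 and MRPL42 passed in all 6 fits that left out 1 library. In these fits 6 to 14 members passed, against 16 with all 6 libraries. Over all tested genes, 2941 to 4266 passed, against 4175 with all 6 libraries. Calls were thus lost outside the family too, but by a smaller share at the lowest count. Without ruxolitinib replicate 1 the fit lost MRPL21, MRPS24, MRPL54, MRPL9, MRPS6, MRPS25, MRPL44, MRPL17, MRPL23 and MRPL1, with edgeR adjusted p of 0.0523 to 0.156. Without ruxolitinib replicate 2 it lost MRPL21, MRPL54, MRPL9, MRPS25, MRPL23 and MRPL1 (adjusted p of 0.0529 to 0.163). Leaving out ruxolitinib replicate 3 cost the calls of MRPL9, MRPS6, MRPS25, MRPL44, MRPL17, MRPL27 and MRPL1 (edgeR adjusted p of 0.0583 to 0.0943). Genes lost without control replicate 1 were MRPL21, MRPL54, MRPS6, MRPS25, MRPL44, MRPL17, MRPL27, MRPL23 and MRPL1 (edgeR adjusted p of 0.0579 to 0.186). Leaving out control replicate 2 ended the calls of MRPL21, MRPL9 and MRPL23 (edgeR adjusted p of 0.0608 to 0.108). With control replicate 3 left out, MRPL51, MRPS24, MRPL54, MRPL9, MRPS6, MRPS25, MRPL44, MRPL17, MRPL23 and MRPL1 did not pass (edgeR adjusted p of 0.0526 to 0.171). Calls gained were MRPS16, MRPS18C and MRPL13 without ruxolitinib replicates 1, 2 and 3 in turn, and MRPS34 without control replicate 2.

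When both libraries of batch 1 were left out, 0 members passed in edgeR and 14 had an unadjusted p under 0.05. How many of all tested genes had such an unadjusted p is not given here. All 16 genes kept their sign, which groups that do not overlap all but fix. In that fit of 2 against 2 libraries, 1983 tested genes passed. MRPL48 then had an adjusted p of 0.0753, MRPS15 of 0.0892, MRPL36 of 0.105 and MRPL42 of 0.133. MRPL48, MRPL36 and MRPS15 passed in every other one of the 19 alternative settings, and MRPL42 also missed the threshold without both libraries of batch 3 (edgeR adjusted p = 0.0610). Without that pair, 4 members passed as higher and 0 as lower.

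**Figure D4:**
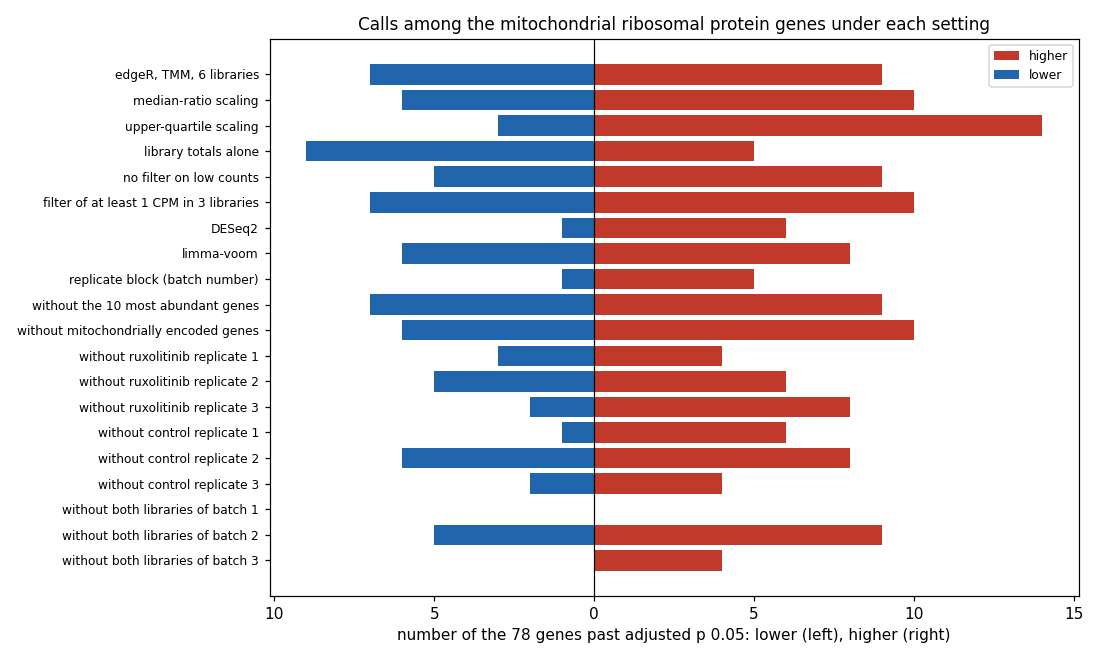
Number of the 78 genes past adjusted p 0.05 as lower (blue, left of 0) and as higher (red, right of 0), in the edgeR fit on 6 libraries (top row) and under 19 alternative settings. The top row has 7 lower and 9 higher, upper-quartile scaling has the most higher (14), library totals alone has the most lower (9), and the row without both libraries of batch 1 is empty.

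Some members lay just outside the threshold, and 9 uncalled members had an unadjusted edgeR p under 0.05. The matching share of all uncalled genes is not given here, so this count is not read as a trait of the family. MRPL28 had 30.8, 32.4 and 29.9 CPM with ruxolitinib, against 26.8, 26.6 and 28.4 CPM in control (log2 fold change 0.19 ± 0.07, edgeR adjusted p = 0.0503). MRPS34, a mitochondria-specific protein of the small subunit, had 19.4, 20.1 and 18.7 CPM with ruxolitinib, against 15, 18.2 and 15.4 CPM in control (log2 fold change 0.26 ± 0.09, edgeR adjusted p = 0.0516). In both genes the groups did not overlap, as in genes that passed. MRPL47 (edgeR adjusted p = 0.0582) and MRPL13 (edgeR adjusted p = 0.0666) had log2 fold changes of 0.18 and 0.20. MRPS16, a small-subunit protein with a bacterial counterpart, had 18.2, 16.4 and 14.7 CPM with ruxolitinib, against 18.0, 21.0 and 19.9 CPM in control, so that ruxolitinib replicate 1 lay among the control libraries (log2 fold change -0.26 ± 0.10, edgeR adjusted p = 0.0601).

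Further members were picked by role. MRPL10 and MRPL12 form the stalk that recruits translation factors, and MRPL11 and MRPL53 lie at its base. MRPL12 had 14.8, 16.3 and 14.4 CPM with ruxolitinib, against 15.4, 15.1 and 14.4 CPM in control (log2 fold change 0.02). MRPL10 had 22.9, 19.3 and 21.6 CPM with ruxolitinib, against 24.5, 21.6 and 23.3 CPM in control (log2 fold change -0.12). The groups overlapped in both stalk genes. MRPL11 had 12.4, 14.9 and 11.9 CPM with ruxolitinib, against 12.8, 12.1 and 11.2 CPM in control (log2 fold change 0.12). MRPL53 had 15.4, 15.8 and 14.1 CPM with ruxolitinib, against 18.4, 15.8 and 16.7 CPM in control (log2 fold change -0.16). These overlapped as well, and none of the 4 genes passed, with edgeR adjusted p of 0.200 to 0.887. MRPL53 shares 45.2% of its exon bases with CCDC142 on the same strand (log2 fold change 0.13 ± 0.17, edgeR adjusted p = 0.621).

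MRPS12, which sits at the decoding centre, had 6.87, 7.28 and 6.76 CPM with ruxolitinib, against 7.09, 7.64 and 6.38 CPM in control. MRPL3, close to the peptidyl-transferase centre, had 41.4, 46.2 and 37.8 CPM with ruxolitinib, against 40.1, 37.4 and 41.6 CPM in control. Both had overlapping groups and missed the threshold (edgeR adjusted p of 0.945 and 0.50).

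MRPL58 encodes a peptidyl-tRNA hydrolase built into the large subunit. It had 17.1, 21.6 and 19.5 CPM with ruxolitinib, against 18.7, 18.7 and 19.3 CPM in control (log2 fold change 0.04, edgeR adjusted p = 0.786). The ruxolitinib libraries lay on both sides of the control libraries. MRPL18, whose bacterial counterpart binds the smallest ribosomal RNA, had 94.6, 94.6 and 98.1 CPM with ruxolitinib, against 99.4, 92.5 and 87.3 CPM in control (log2 fold change 0.04, edgeR adjusted p = 0.607). MRPL33, which has a bacterial counterpart, had 49.7, 54.5 and 49.5 CPM with ruxolitinib, against 49.1, 45.4 and 46.4 CPM in control (log2 fold change 0.13, edgeR adjusted p = 0.141). MRPL41 had 27.8, 27.4 and 26.8 CPM with ruxolitinib, against 29.9, 30 and 26.3 CPM in control (log2 fold change -0.07, edgeR adjusted p = 0.494). Of these 4 genes none passed, and in MRPL33 alone the groups did not overlap. MRPL33 shares 324 of its 1539 exon bases (21.05%) with BABAM2 on the same strand. The log2 fold change of BABAM2 was -0.44 ± 0.08 (edgeR adjusted p = 0.00100).

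The MRPS18 genes are 3 paralogues of 1 bacterial protein, and the protein of MRPS18A sits in the large subunit despite its name. MRPS18A had 22.9, 20.5 and 19.6 CPM with ruxolitinib, against 22.8, 19.4 and 19.4 CPM in control. MRPS18B had 7.97, 8.51 and 6.92 CPM with ruxolitinib, against 8.55, 7.88 and 8.20 CPM in control. MRPS18C had 34.5, 43.1 and 33.1 CPM with ruxolitinib, against 44.0, 39.1 and 41.7 CPM in control. The groups overlapped in all 3 genes, and the widest difference was that of MRPS18C, in which ruxolitinib replicate 2 was among the control libraries (log2 fold change -0.17 ± 0.10, edgeR adjusted p = 0.220). MRPS18C shares 40.2% of its exon bases with ABRAXAS1 on the opposite strand, a DNA-repair scaffold gene with a log2 fold change of -0.71 ± 0.15 (edgeR adjusted p = 0.00396).

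MRPS30, a further large-subunit protein with a small-subunit name, had 46.3, 47.1 and 47.5 CPM with ruxolitinib, against 50.02, 52.0 and 51.1 CPM in control. The groups were apart by little (log2 fold change -0.12 ± 0.05, edgeR adjusted p = 0.103). MRPS36, since assigned to the oxoglutarate dehydrogenase complex, had 39.8, 47.9 and 41.9 CPM with ruxolitinib, against 41.1, 35.8 and 37.3 CPM in control, with overlap (log2 fold change 0.18 ± 0.08, edgeR adjusted p = 0.102).

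MRPS2 had 19.1, 17.8 and 19.5 CPM with ruxolitinib, against 17.3, 17.8 and 17.9 CPM in control. MRPS5 had 31.8, 29.6 and 30.2 CPM with ruxolitinib, against 29.2, 29.96 and 31.4 CPM in control. MRPS7 had 35.4, 37.4 and 34.1 CPM with ruxolitinib, against 34.7, 32.8 and 33.4 CPM in control. These 3 have bacterial counterparts, and their groups overlapped. MRPS22, mutated in human mitochondrial disease, had 40.1, 42.2 and 41.0 CPM with ruxolitinib, against 42.9, 39.3 and 40.9 CPM in control. MRPS27, without a bacterial counterpart, had 16.1, 17.7 and 15.1 CPM with ruxolitinib, against 15.6, 13.6 and 15.9 CPM in control. The log2 fold changes of MRPS2, MRPS5, MRPS7, MRPS22 and MRPS27 were 0.09, 0.02, 0.08, 0.00 and 0.12, and none passed (edgeR adjusted p of 0.344 to 0.974).

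A missed threshold does not show that a gene was unchanged, so the intervals were read as well. Of the 62 members that did not pass, 40 had a 95% interval of the fold change that lay within 1.25-fold either way. Over all members, 74 of 78 intervals lay within 1.5-fold and all 78 within 2-fold. The median distance from the estimate to the end of its interval was 0.17 on the log2 scale and the widest was 0.36. The coefficient of variation between libraries of a group had a median of 5.96% with ruxolitinib and 5.39% in control. The noisiest member with ruxolitinib was MRPL39, at 23.1, 28.5 and 20.6 CPM, or 16.8%, where its control libraries had 21.2, 23.1 and 21.3 CPM.

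Ruxolitinib replicate 2 stood apart within its group. It was the highest of the 3 ruxolitinib libraries for 49 of the 78 members (62.8%), where it was highest for 37.6% of all tested genes. The same library had the lowest share of counts from mitochondrial DNA, 3.75%, where the other ruxolitinib libraries had 4.94% and 6.42% and the control libraries 5.27% to 5.90%. Without it, 6 members passed as higher and 5 as lower, and the median log2 fold change of the family was 0.02. One of the lower members was then MRPS18C, which did not pass with all 6 libraries. The part of this library's composition in the results was not tested.

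Levels differed widely between members. Per kilobase of annotated exons, a scale on which genes can be compared, the mean over both groups was highest for MRPL18, at 68.7 CPM per kilobase, followed by MRPS10 at 53.1, MRPL14 at 49.8, MRPL15 at 47.9 and MRPS6 at 41.3. The lowest were MRPS33 at 0.720, MRPL46 at 1.07, MRPL42 at 1.46, MRPL4 at 1.73 and MRPL1 at 2.08 CPM per kilobase. These lengths join the exons of all annotated transcripts, 16393 bases for MRPL42, and so understate genes with long rarely used exons.

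The promoters of the family were searched for letters bound by factors known to drive nuclear genes of mitochondria. RefSeq windows of 300 bases, 250 before to 50 after the start, were found for 69 of the 78 members and for 10190 tested genes, in GRCh38.p14, and both strands were read. The letters CCGGAAG, bound by the ETS factor GABP, occurred in 29 member promoters (42.0%), in 19.8% of promoters of tested genes and in 10.7% of all 27305 promoters. The YY1 letters AAGATGGC occurred in 20 members (29.0%), in 5.52% of promoters of tested genes and in 3.03% of all. Of the 21 YY1 matches, 15 began no earlier than 10 bases before the start. GCGCA, any base and GCGC, the NRF1 letters, occurred in 8 members (11.6%), in 11.9% of promoters of tested genes and in 6.29% of all.

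At least 1 of the 3 motifs was in 45 members (65.2%) and in 32.7% of promoters of tested genes, while the median GC content was 60.3% in members and 65% in promoters of tested genes. The letters of a STAT site, TTCNNNGAA, were in 10.1% of members and 6.58% of promoters of tested genes. Those of an interferon-response element, GAAA, any 2 bases and GAAA, were in 2.90% of members and 3.07% of promoters of tested genes, and those of an E-box, CACGTG, in 8.70% of members and 10.04% of promoters of tested genes. By response, the GABP letters were in 3 of 8 members that rose, 1 of 6 that fell and 25 of 55 that did not pass, and the YY1 letters in 3 of 8, 1 of 6 and 16 of 55. The GABP and YY1 letters share an end, but their matches overlapped in 0 of the 69 member promoters. A match is a description of these windows and not a bound site.

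Stretches upstream of the start are shown for a gene that rose, 2 that did not pass and a gene that fell, to set the motifs side by side. Each is 150 bases free of exons annotated in GENCODE 29, 5′ to 3′ on the gene's strand from RefSeq (GRCh38.p14), and capitals mark a match to one of the 3 motifs. They lie at chr5:1799896-1800045, minus strand, for MRPL36, at chr6:42217866-42218015, minus strand, for MRPS10, at chr6:43687792-43687941, minus strand, for MRPS18A, and at chr12:93467338-93467487, plus strand, for MRPL42.
MRPL36: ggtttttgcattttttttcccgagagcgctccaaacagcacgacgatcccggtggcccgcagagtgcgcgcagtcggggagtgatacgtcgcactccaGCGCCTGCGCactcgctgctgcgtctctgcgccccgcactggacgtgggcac
MRPS10: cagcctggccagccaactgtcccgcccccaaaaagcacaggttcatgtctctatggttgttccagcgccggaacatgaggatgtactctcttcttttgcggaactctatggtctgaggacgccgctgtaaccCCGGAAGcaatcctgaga
MRPS18A: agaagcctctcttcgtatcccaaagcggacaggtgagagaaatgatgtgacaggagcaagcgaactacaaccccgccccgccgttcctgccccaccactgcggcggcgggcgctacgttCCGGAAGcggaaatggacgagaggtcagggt
MRPL42: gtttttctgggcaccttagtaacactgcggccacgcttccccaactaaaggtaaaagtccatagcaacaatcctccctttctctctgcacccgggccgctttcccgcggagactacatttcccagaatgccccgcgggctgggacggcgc
The match in MRPL36 is to the NRF1 letters read on the opposite strand and begins 110 bases before the start, and those in MRPS10 and MRPS18A are to the GABP letters and begin 22 and 31 bases before it. MRPL42 has none of the 3 in this stretch. The full window of each of these 4 genes also holds 1 match to the YY1 letters, outside the stretch shown. MRPS10, one of the most abundant members per kilobase, had 109, 122 and 107 CPM with ruxolitinib, against 114, 106 and 114 CPM in control (log2 fold change 0.02 ± 0.06, edgeR adjusted p = 0.877).

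Transcripts of the factors named for these letters were read as well. Of 13 transcription factors and coactivators of mitochondrial genes, 12 were tested, 2 rose (16.7%) and 2 fell (16.7%). Over all tested genes 13.6% rose and 16.1% fell. GABPB1, the partner subunit of GABP, had 48.1, 53.0 and 47.9 CPM with ruxolitinib, against 40.6, 40.0 and 36.8 CPM in control (log2 fold change 0.34 ± 0.06, edgeR adjusted p = 0.00169). GABPA, the DNA-binding subunit, had a log2 fold change of -0.05 ± 0.08, YY1 of 0.12 ± 0.05 and NRF1 of -0.08 ± 0.09, and none of these passed (edgeR adjusted p of 0.123 to 0.650). The coactivator PPARGC1B fell to 6.29 ± 0.893 CPM with ruxolitinib, against 10.1 ± 0.936 CPM in control (log2 fold change -0.69 ± 0.13, edgeR adjusted p = 0.00201). PPRC1, a related coactivator, also fell (log2 fold change -0.34 ± 0.09, edgeR adjusted p = 0.0143, 0.05005 with the block and 0.0692 without control replicate 1). CREB1 rose (log2 fold change 0.18 ± 0.05, edgeR adjusted p = 0.0260) but not with the block (0.0970), and it passed in 2 of 6 single-library fits. MAX, SP1, MYC, HCFC1 and ESRRA had log2 fold changes of -0.12, -0.10, -0.08, 0.11 and 0.24 and did not pass, and PPARGC1A was under the filter on low counts.

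Subunits of the mitochondrial ribosome that carry other symbols were near level. DAP3, which binds GTP and is known from apoptosis, had 115 ± 2.68 CPM with ruxolitinib and 109 ± 1.99 CPM in control (log2 fold change 0.08 ± 0.05). AURKAIP1, GADD45GIP1, CHCHD1 and PTCD3 had log2 fold changes of 0.09, 0.05, 0.03 and -0.10. None of the 5 passed, with edgeR adjusted p of 0.217 to 0.830.

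Of 27 factors that assemble the mitochondrial ribosome, 4 rose (14.8%), 2 fell (7.41%) and 21 did not pass. The shares over all tested genes were 13.6% and 16.1%. METTL17, a methyltransferase-like factor of small-subunit assembly, had 28.8, 28.6 and 32.9 CPM with ruxolitinib, against 23.8, 24.5 and 22.4 CPM in control (log2 fold change 0.35 ± 0.08, edgeR adjusted p = 0.00411). It passed in all 6 single-library fits and with the block (0.0227). The GTPase MTG1, the GTPase NOA1 and MPV17L2 rose by 0.37, 0.35 and 0.35 on the log2 scale (edgeR adjusted p of 0.0308 to 0.0360). With the block these had adjusted p of 0.0471, 0.0838 and 0.0686, and they passed in 1, 2 and 2 of the 6 single-library fits. RBFA, which acts on the small-subunit RNA, fell to 3.44 ± 0.340 CPM with ruxolitinib, against 4.69 ± 0.230 CPM in control (log2 fold change -0.45 ± 0.15, edgeR adjusted p = 0.0425, 0.0947 with the block), and passed in 0 of 6 single-library fits. MTERF4 fell by 0.24 on the log2 scale (edgeR adjusted p = 0.0326, 0.0828 with the block) and passed in 2 of 6.

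Of 14 factors of mitochondrial translation, 1 passed (7.14%, against 29.7% of all tested genes). TUFM, the elongation factor that brings aminoacyl-tRNAs to the ribosome, had 67.4, 68.1 and 69.5 CPM with ruxolitinib, against 51.2, 52.7 and 52.4 CPM in control. The groups were far apart relative to their spread, with a log2 fold change of 0.39 ± 0.05 (SE, edgeR adjusted p = 9.05e-05, at most 0.00117 in the 6 single-library fits). TSFM, which recharges it, had 16.1, 19.4 and 14.2 CPM with ruxolitinib, against 14.5, 13.6 and 13.8 CPM in control, with overlap (log2 fold change 0.24 ± 0.11, edgeR adjusted p = 0.122). The initiation factors MTIF2 and MTIF3 had log2 fold changes of -0.13 and -0.20, the elongation factors GFM1 and GUF1 of -0.07 and -0.10, and the recycling factors MRRF and GFM2 of -0.18 and -0.10. The release factors MTRF1 and MTRF1L had -0.20 and 0.10, the rescue factor MTRFR had 0.19, and MTFMT, TACO1 and the insertase OXA1L had 0.11, 0.10 and 0.09, none of them past the threshold.

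Of 17 aminoacyl-tRNA synthetases of mitochondria, 2 rose (11.8%) and 1 fell (5.88%), against 13.6% and 16.1% of all tested genes. TARS2, which charges threonine tRNA, had 15 ± 1.124 CPM with ruxolitinib and 11.1 ± 0.787 CPM in control (log2 fold change 0.43 ± 0.10, edgeR adjusted p = 0.00636). WARS2, for tryptophan, rose by 0.35 on the log2 scale (edgeR adjusted p = 0.0126, 0.0501 with the block, 0.0615 without ruxolitinib replicate 1). LARS2, for leucine, fell by 0.26 (edgeR adjusted p = 0.0128), and missed the threshold without control replicate 3 or ruxolitinib replicate 1 (at most 0.0926).

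Among the genes of the related lists, the largest change was in RNA decay. PNPT1, the polynucleotide phosphorylase that degrades mitochondrial RNA and an interferon-induced gene, fell to 23.7, 25.6 and 23.6 CPM with ruxolitinib, against 133, 122 and 129 CPM in control. The log2 fold change was -2.39 ± 0.06 (SE, edgeR adjusted p = 1.86e-11). Of the 18 genes of mitochondrial RNA processing and decay, 3 fell (16.7%) and 1 rose (5.56%), against 16.1% and 13.6% of all tested genes. ANGEL2 fell by 0.50 on the log2 scale (edgeR adjusted p = 0.000662). The poly(A) polymerase MTPAP fell by 0.33 (edgeR adjusted p = 0.0277, 0.0739 with the block), and TRMT10C, a subunit of mitochondrial RNase P, rose by 0.23 (edgeR adjusted p = 0.0331, 0.0844 with the block), with 3 and 2 of 6 single-library fits past the threshold.

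Of 12 genes that transcribe or copy mitochondrial DNA, 2 fell (16.7%) and none rose, against 16.1% and 13.6% of all tested genes. The helicase TWNK had 6.82, 4.71 and 6.22 CPM with ruxolitinib, against 9.62, 7.92 and 8.89 CPM in control (log2 fold change -0.57 ± 0.15, edgeR adjusted p = 0.0125). It shares 149 exon bases with the member MRPL43 on the opposite strand, which had a log2 fold change of 0.17 ± 0.09 (edgeR adjusted p = 0.198). The exonuclease MGME1 fell by 0.34 (edgeR adjusted p = 0.0278), with 2 of 6 single-library fits past the threshold. TFAM, which packages and activates mitochondrial DNA, had a log2 fold change of 0.12, the polymerase POLRMT of 0.37, TFB2M of 0.15, POLG of 0.05, POLG2 of -0.10, SSBP1 of -0.15, TOP1MT of -0.09, MTERF1 of -0.20, TEFM of -0.30 and PRIMPOL of -0.41, and none of these passed (edgeR adjusted p of 0.0514 to 0.668).

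The 13 mRNAs that mitochondrial ribosomes translate did not pass in either direction. Their summed level was 37322, 26907 and 50501 CPM with ruxolitinib, against 46375, 42867 and 40947 CPM in control. The ruxolitinib libraries enclosed the control libraries, and replicate 2 was lowest. The median log2 fold change of the 13 genes was -0.27, with edgeR adjusted p of 0.482 to 0.991. MT-ND1, MT-ND4, MT-ND4L and MT-ATP8 had -0.31 each, MT-ND2 had -0.30, MT-ND5 had -0.29 and MT-ND6 had -0.27. MT-ATP6 and MT-CYB had -0.19 each, MT-CO2 had -0.14, MT-CO1 had -0.10, MT-ND3 had 0.00 and MT-CO3 had 0.06. At an SE of 0.28 at the median, a difference of this size was not detectable in these libraries.

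Of 23 genes of mitochondrial protein import, by which the members' proteins reach the organelle, 7 rose (30.4%) and 0 fell. Over all tested genes 13.6% rose and 16.1% fell. With the block, however, only TIMM17B and TIMM21 passed. TIMM17B, a channel subunit of the inner membrane, had 19.8, 19.2 and 19.2 CPM with ruxolitinib, against 15.1, 15.9 and 15.3 CPM in control (log2 fold change 0.33 ± 0.07, edgeR adjusted p = 0.00585). TIMM21 rose by 0.32 (edgeR adjusted p = 0.0146, 0.0659 without ruxolitinib replicate 1). TIMM17A, GRPEL1, TOMM7, TOMM70 and TOMM20 rose by 0.25, 0.19, 0.19, 0.16 and 0.14 on the log2 scale, with edgeR adjusted p of 0.0136 to 0.0438 and of 0.0679 to 0.147 with the block. TIMM17A passed in all 6 single-library fits and GRPEL1 in 5, missing only without control replicate 1 (0.0548), while TOMM7, TOMM70 and TOMM20 passed in 1 each.

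Cytosolic ribosomes and the respiratory chain were set beside the family. Of 83 tested cytosolic ribosomal protein genes, 73 rose and 2 fell (median log2 fold change 0.36), and the block left 66 and 0. Of 77 tested nuclear genes for subunits of the respiratory chain and ATP synthase, 38 rose (49.4%) and 1 fell (1.30%), with a median of 0.17. There the block left 18 and 0. The mitochondrial ribosomal proteins had 9 higher and 7 lower in the same fit, and 5 and 1 with the block. Over all tested genes 13.6% were higher and 16.1% lower, and 2915 passed with the block, against 4175 without it. No test of the difference between these lists was made.

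**Figure D5:**
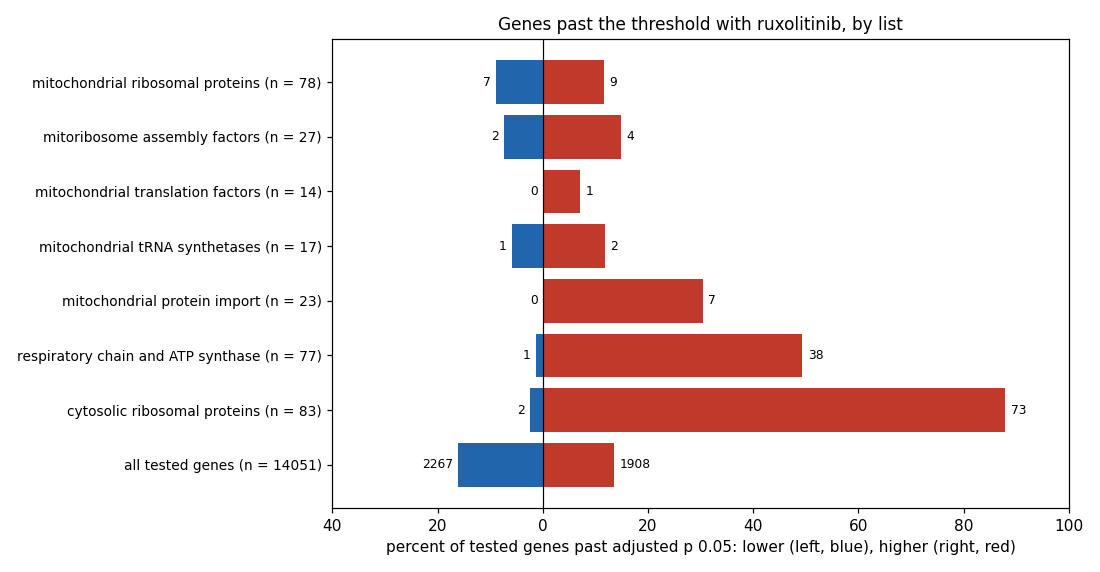
Percent of the tested genes of each list that passed adjusted p 0.05 as lower (blue, left of 0) or higher (red, right of 0) with ruxolitinib, with the number of genes at each bar. The mitochondrial ribosomal proteins have 7 lower and 9 higher, while the cytosolic ribosomal proteins have 2 lower and 73 higher and the respiratory chain 1 lower and 38 higher.

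Copies of the family elsewhere in the genome took few counts. Of the 79 pseudogene rows, 62 had 0 counts in all libraries, 77 had a mean under 0.1 CPM, and the others were MRPS31P5, at 2.47 CPM, and MRPL45P2, at 1.16 CPM. Neither passed the test (edgeR adjusted p of 0.687 and 0.473). Reads of near-identical copies could be split between rows, so MRPS31 and MRPL45 carry that uncertainty. MRPL20-AS1, an antisense row left out of the family, rose to 8.21 CPM with ruxolitinib, against 6.22 CPM in control (log2 fold change 0.39 ± 0.13, edgeR adjusted p = 0.0349, 0.0759 with the block). It passed in 1 of 6 single-library fits. MRPL20 itself had a log2 fold change of 0.11 ± 0.07 (edgeR adjusted p = 0.293). It shares 139 exon bases with an opposite-strand gene of the same mean level as MRPL20-AS1, 7.205 CPM. As the use of strand in counting is not given, reads of that stretch cannot be told apart. In all, 25 members share exon bases with another gene of at least 1 CPM, and the members lie on 21 chromosomes with at most 8 on any of them.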

How the data were processed

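Poly-A-selected RNA was sequenced in 6 libraries, 3 per group. The table deposited by the authors holds unnormalised read counts, whole numbers, for each gene. Per the submitters' processing notes, the build was hg38. The sources used here name no aligner, counter, annotation release or strand setting.

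Counts were fitted with edgeR 4.0.16 (quasi-likelihood, robust, TMM) in R 4.3.3 on all 6 libraries, after filterByExpr (minimum count 10, minimum total 15). P-values were adjusted by Benjamini-Hochberg over 14051 genes. SE is the size of the coefficient over the root of F. CPM values were computed over TMM-scaled totals. Coordinates, exon lengths and overlaps came from GENCODE 29 (GRCh38), which held all 78 members. Alternatives used limma 3.58.1 (voom), DESeq2 1.42.0, other scalings and filters, and left-out libraries.

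The members, the related lists and the tests were chosen with earlier results of these data known. Values per library, mostly as CPM, are given for members that passed, for a set of members picked by role, and for some leading genes of related lists, while other genes of those lists have group means or fold changes only. MRPL28, MRPL47, MRPL13, MRPL39 and MRPS10 were added after their values were seen.

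Batch numbers in the labels are shared across groups and are the ground for pairing. Within pairs, deviations from the group means correlated over genes at -0.02, -0.19 and -0.10. No label says that libraries of a group were separate cultures, so p-values rest on a spread that may be technical. On simulated counts (13855 genes), the fit recovered 25% of genes changed 1.25-fold, 48.9% at 1.5-fold and 76.5% at 2-fold. Few genes were changed there and 134 passed, against 4175 in the data, so these shares may understate recovery in the data.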

Additional observations from a re-analysis of the deposited data

How the results depend on the processing

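The signs of the 16 genes that passed held under all 19 alternatives, but the counts moved. Those signs could hardly change, as the 16 were picked in the same libraries. Higher and lower members numbered 9 and 7 with 6 libraries, 14 and 3 with upper-quartile scaling, 5 and 9 with library totals alone, 6 and 1 in DESeq2, and 5 and 1 with the replicate block, which pairs libraries by batch and kept 6 of the 16 calls. Leaving out 1 library gave 4 to 8 higher and 1 to 6 lower, with 2941 to 4266 of all tested genes past the threshold. Leaving out a batch pair gave 0 and 0 for batch 1, with 1983 of all tested genes past the threshold, 9 and 5 for batch 2, and 4 and 0 for batch 3. Fewer samples entered those fits. Upper-quartile scaling and library totals also moved the median log2 fold change over all tested genes, to 0.0233 and -0.0475. For the scalings, DESeq2 and the block the cause of the moved counts was not tested. Median-ratio scaling, limma-voom, both filters, and removal of the 10 most abundant or the mitochondrially encoded genes kept the counts within 8 to 10 higher and 5 to 7 lower.

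Between 0 and 14 of the 62 other members changed sign in a setting, and the family's median log2 fold change ran from 0.0055 to 0.0774. Among the related lists, import ranged over 2 to 9 higher in settings with 6 libraries, assembly over 1 to 4, and respiratory chain genes over 18 to 45. A member floor of 0.5 CPM left the family at 78 genes, and a floor of 5 CPM left 75. On simulated counts over all genes, 25% of genes changed 1.25-fold were recovered. Only 134 genes passed in that simulation, against 4175 in the data, so its adjusted threshold was stricter. The recovered share is thus not that of the data, and the part of depth was not tested.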
